A study of Mus musculus with 6 samples.

Results

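A set of 10 genes of the tumor necrosis factor (TNF) system was examined among the 46603 genes counted in renal CD11B+ cells after ischemia-reperfusion AKI (IRI-AKI). They were taken by gene symbol and comprise the ligands Tnf, Tnfsf9, Tnfsf12 and Tnfsf13b, the receptors Tnfrsf1a, Tnfrsf1b, Tnfrsf9, Tnfrsf11a and Fas and the adaptor Traf1. All 10 were found in the count table and all 10 passed the filter on low counts.

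CD11B is an integrin subunit of monocytes, macrophages and granulocytes, and cells bearing it were pulled from digested whole kidneys with magnetic beads (MACS). The mice were males of 10 to 12 weeks. All of them had both renal pedicles clamped for 28 minutes and were killed 3 days after surgery. The PTEC DN RAR group was PEPCK CRE+ with Rosa26-LSL-RARaT403X, an allele that on recombination expresses a truncated RARa acting as a dominant-negative inhibitor of retinoic acid receptors. PEPCK-Cre drives that recombination in proximal tubular epithelial cells (PTECs), so the allele was not targeted to the CD11B+ cells that were sequenced. The Cre– controls carried the same Rosa26 allele without Cre and had the same injury, and no uninjured mice were part of the series. There were 3 libraries per genotype, so the comparison asks how the transcripts of CD11B+ cells differed when retinoic acid signaling was inhibited in PTECs.

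TNF superfamily ligands are mostly membrane-bound trimers, some of which are shed by proteases, and each binds its own small set of receptors. Receptors with a death domain, such as TNFR1 and FAS, can start cell death through FADD and caspase-8. Receptors without one recruit TRAF adaptors, which lead to NF-kB and MAP kinase signaling. Macrophages are a major source of TNF in injured kidney and carry both TNF receptors.

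Promoter sequence from RefSeq (mouse build GRCm38.p6) was matched for 8 of the 10 members, and Tnfsf9 and Tnfsf12 had no entry. The 250 bases before each start were searched on both strands for the TATA motif TATAAA, the AP-1 motif TGANTCA and the NF-kB consensus. Over 32851 promoters of the same length, 12.4% held the TATA motif, 6.75% the AP-1 motif and 7.25% the NF-kB consensus. Promoters of 4 members are printed 5′ to 3′ because the results turn on these genes, with the matched motif in capitals: the inflammatory ligand Tnf (chr17:35202008-35202257, minus strand), the member that rose, Tnfsf13b (chr8:10006217-10006466, plus strand), the receptor with the lowest adjusted p, Tnfrsf11a (chr1:105780473-105780717, plus strand), and the death receptor Fas (chr19:34290409-34290658, plus strand). A stretch of 30 bases from a window of Tnfrsf9 (chr4:150927949-150927978, plus strand) is added because no other member window had an NF-kB match. This window belongs to the RefSeq start at 150927999, and another RefSeq start of Tnfrsf9 lies at 150920155. Both starts lie inside the gene as annotated in GENCODE M21, which begins at 150914562, so neither window precedes the annotated gene.
Tnf: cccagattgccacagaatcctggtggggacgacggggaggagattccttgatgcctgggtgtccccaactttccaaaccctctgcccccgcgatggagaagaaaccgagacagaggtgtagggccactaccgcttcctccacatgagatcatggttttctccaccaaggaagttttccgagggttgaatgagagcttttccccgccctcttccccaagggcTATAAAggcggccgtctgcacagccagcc
Tnfsf13b: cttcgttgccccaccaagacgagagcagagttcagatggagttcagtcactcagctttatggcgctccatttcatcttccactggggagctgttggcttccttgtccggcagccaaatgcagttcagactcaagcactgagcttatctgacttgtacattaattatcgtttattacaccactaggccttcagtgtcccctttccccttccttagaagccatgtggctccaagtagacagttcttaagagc
Tnfrsf11a: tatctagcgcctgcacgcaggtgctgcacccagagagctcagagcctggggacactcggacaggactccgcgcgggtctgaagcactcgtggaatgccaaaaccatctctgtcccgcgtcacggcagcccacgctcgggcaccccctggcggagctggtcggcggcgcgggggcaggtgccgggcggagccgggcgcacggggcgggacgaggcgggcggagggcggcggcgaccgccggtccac
Fas: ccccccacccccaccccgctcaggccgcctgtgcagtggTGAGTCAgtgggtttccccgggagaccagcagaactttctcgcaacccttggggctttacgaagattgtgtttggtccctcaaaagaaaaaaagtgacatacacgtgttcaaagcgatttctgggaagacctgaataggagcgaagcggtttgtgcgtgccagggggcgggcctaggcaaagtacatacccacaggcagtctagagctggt
Tnfrsf9: agcagctGGGGATTTCCCaggaggccctgc
In Tnf the TATA motif began 29 bases before the start. In Fas the AP-1 motif began 211 bases before it. The capitals in Tnfrsf9 span 11 bases and hold 2 overlapping NF-kB matches, the first of which began 43 bases before the start. An AP-1 match followed in the same Tnfrsf9 window, 15 bases before the start, and a second RefSeq start of Tnfsf13b had an AP-1 match 127 bases before it. The motifs were not found in the windows of Tnfrsf11a, Traf1, Tnfrsf1a or Tnfrsf1b. Nor were they found in the printed window of Tnfsf13b or in the Tnfrsf9 window of the start at 150920155. These matches describe the letters only.

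Libraries held 29318041 to 46517005 counts on genes, so that 3 counts corresponded to 0.0645 to 0.102 counts per 1000000 counts on genes (CPM). Levels are given below as CPM scaled by the trimmed mean of M values (TMM), and fold changes and adjusted p-values are from edgeR's quasi-likelihood test over 15440 genes. A gene was called at an adjusted p under 0.05. Itgam, which encodes CD11B, was present at 1736 to 1994 CPM in Cre– controls and at 980 to 1366 CPM in PTEC DN RAR mice. Markers of other cells moved with genotype. The summed level of 16 proximal tubule markers was 753 to 1004 CPM in Cre– controls and 2531 to 3918 CPM in PTEC DN RAR mice, and all 16 were called higher. The summed level of 8 endothelial markers was 81.4 to 121 CPM in Cre– controls and 236 to 288 CPM in PTEC DN RAR mice, and all 8 were called higher. The 6 markers of the thick ascending limb were all called higher, with a summed level of 1036 to 1455 CPM in Cre– controls and 3617 to 6990 CPM in PTEC DN RAR mice. Also called higher were 5 of 7 distal and collecting duct markers, 4 of 6 podocyte markers and 5 of 7 stromal markers. Of 8 markers of infiltrating monocytes, 6 were called lower, and their summed level was 2449 to 2689 CPM against 1213 to 1382 CPM. Of 10 neutrophil markers, 6 were called lower. The summed level of 10 resident macrophage markers was 19135 to 24385 CPM against 21101 to 26431 CPM, with overlapping ranges. Mitochondrial genes took 5.03% to 8.77% of the counts in Cre– controls and 10.4% to 12.1% in PTEC DN RAR mice. In these bulk samples, fewer cells of a type and less RNA per cell cannot be told apart, and the part that the other cell types had in the results below was not tested.

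Of the 10 members, 5 were called lower in PTEC DN RAR mice (Tnf, Tnfsf9, Tnfrsf1a, Tnfrsf11a and Fas), 1 was called higher (Tnfsf13b), and 4 were not called (Tnfsf12, Tnfrsf1b, Tnfrsf9 and Traf1). Over all genes tested, 17.1% were called lower and 23.6% higher, or 40.6% in either direction. For the same 6 members the CPM of the genotypes did not overlap, which was so for 24.2% of all genes in the lower direction and 29.2% in the higher. The median log2 fold change of the members was -0.32, and that of all genes tested was 0.04. Since transcripts of other cell types were present, the counts were also scaled on the median ratio of 26 genes of leukocytes, called pan-leukocyte genes here, although the list includes the sort marker Itgam and other genes richer in myeloid cells. This moved the median of all genes to 0.23 and that of the members to -0.12. Under it 1 member, Tnfrsf11a, was called lower and 1, Tnfsf13b, higher, where 4.99% of all genes were called lower and 29.8% higher. Scaling on these 26 genes assumes that they did not change together within leukocytes, and 9 of them were themselves called lower after TMM scaling, Itgam the most (log2 fold change -0.64, edgeR adjusted p = 0.0082).

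**Figure D1:**
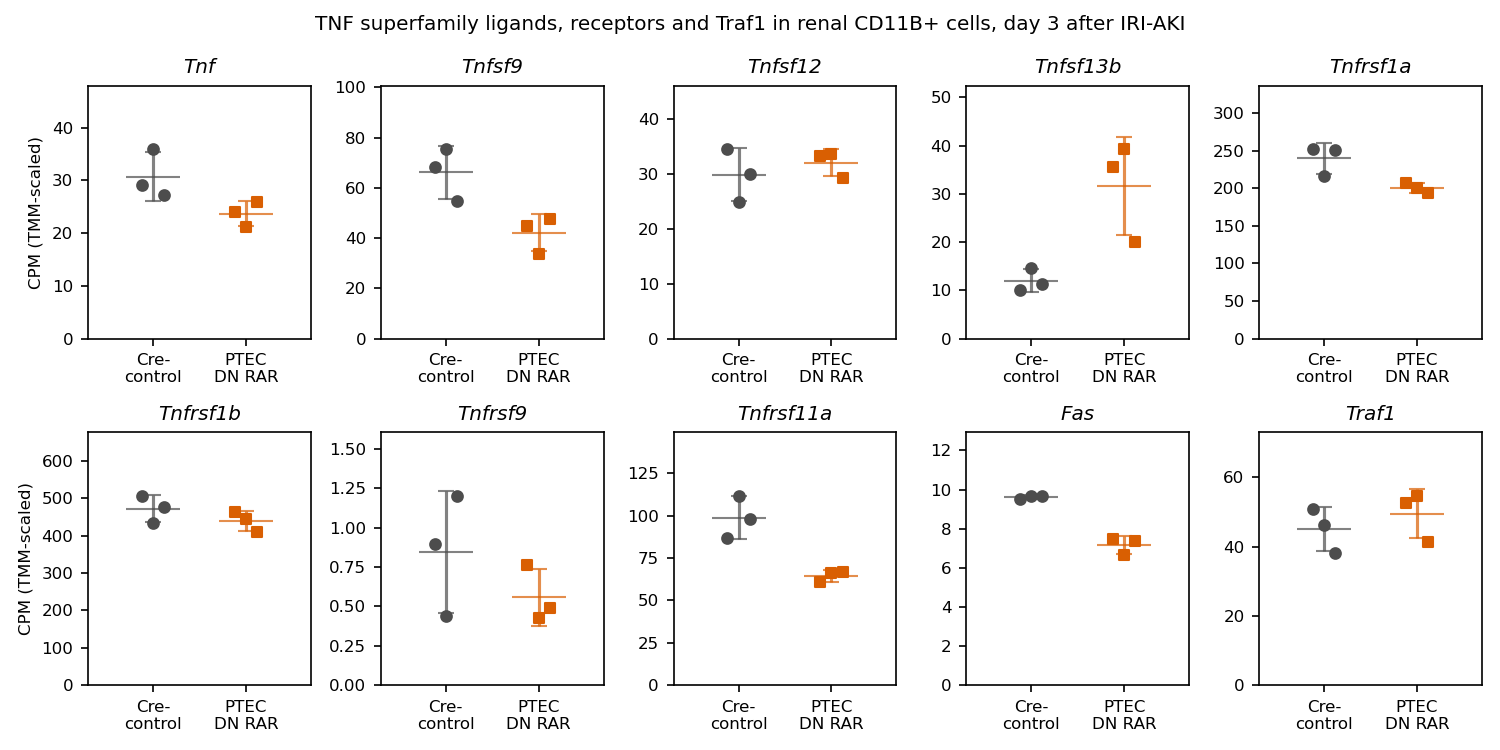
TMM-scaled CPM (y axis, from 0) of each member in the 3 Cre– control (grey circles) and 3 PTEC DN RAR libraries (orange squares), with the mean (wide line) and SD (bars). The genotypes are separate for Tnf, Tnfsf9, Tnfsf13b, Tnfrsf1a, Tnfrsf11a and Fas, and overlap for the other members.

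Members differed widely in level. Per kilobase of exon, Tnfrsf1b was highest, with 124 ± 9.53 CPM per kb in Cre– controls (SD, n = 3), followed by Tnfrsf1a with 92.4 ± 7.94 CPM per kb and Tnfsf9 with 51.2 ± 8.13 CPM per kb. The ranges of these 3 genes did not overlap with that of the next gene in either genotype. Tnfsf12, Tnf and Tnfrsf11a came next, with 19.7 ± 3.19, 18.7 ± 2.81 and 16.5 ± 2.10 CPM per kb in Cre– controls, and each overlapped its neighbor there. Traf1 and Fas had 5.11 ± 0.722 and 4.67 ± 0.0532 CPM per kb in Cre– controls and also overlapped. Tnfsf13b had 1.75 ± 0.348 CPM per kb in Cre– controls, below Fas, and 4.61 ± 1.49 CPM per kb in PTEC DN RAR mice, where its range overlapped that of Fas. Tnfrsf9 was lowest, with 0.310 ± 0.142 CPM per kb in Cre– controls. The 2 receptors of TNF were therefore the most abundant member transcripts per length in these cells.

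Tnf encodes the prototype ligand of the family. The gene (ENSMUSG00000024401) lies on chromosome 17 from 35199381 to 35202007 on the minus strand. It had 29.1, 35.9 and 27.1 CPM in Cre– controls and 24.0, 21.2 and 25.8 CPM in PTEC DN RAR mice. Each PTEC DN RAR library lay below each control, with a narrow gap between the highest of the former and the lowest of the latter. Tnf was 1.30-fold lower (log2 fold change -0.37, SE 0.13, edgeR adjusted p = 0.0481). This call sat at the threshold: it was lost without Cre– control 1 (log2 -0.42, adjusted p = 0.0533), Cre– control 2 (-0.29, adjusted p = 0.104), PTEC DN RAR 1 (-0.39, adjusted p = 0.0983) or PTEC DN RAR 2 (-0.30, adjusted p = 0.14). On pan-leukocyte scaling the difference was -0.17 (adjusted p = 0.418), and the call was also lost, with about the same difference, with library size alone (-0.37, adjusted p = 0.0609), limma-voom (-0.36, adjusted p = 0.0527), at least 10 counts in every library (-0.35, adjusted p = 0.0597) and a replicate block (-0.37, adjusted p = 0.0862). Lymphotoxin alpha (Lta), the other ligand of the TNF receptors, had 1 to 8 counts per library and was not tested.

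Tnfsf9 encodes 4-1BB ligand, a costimulatory ligand of antigen-presenting cells that binds the receptor 4-1BB. The gene (ENSMUSG00000035678) lies on chromosome 17 from 57105325 to 57107757 on the plus strand. It had 68.2, 75.4 and 54.7 CPM in Cre– controls and 45.0, 33.7 and 47.7 CPM in PTEC DN RAR mice. The genotypes did not overlap. Tnfsf9 was 1.57-fold lower (log2 fold change -0.65, SE 0.16, edgeR adjusted p = 0.0113), and the call held with any 1 library left out. On pan-leukocyte scaling it was -0.45 (adjusted p = 0.069). Its exons share 192 bases with Gm11110 on the opposite strand, and since the strand setting of the counting was not given in the sources used here, reads from these bases cannot be assigned with certainty.

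Tnfsf12 encodes TWEAK, a ligand of the receptor Fn14. The gene (ENSMUSG00000097328) lies on chromosome 11 from 69686250 to 69695849 on the minus strand. It had 34.6, 24.9 and 30.1 CPM in Cre– controls and 33.3, 33.8 and 29.2 CPM in PTEC DN RAR mice. The genotypes overlapped, and the difference did not pass the test (log2 fold change 0.10, 95% interval -0.19 to 0.40, edgeR adjusted p = 0.554). Of its 1515 exon bases, 731 are shared with the readthrough gene Tnfsfm13 on the same strand, so its level is uncertain. Fn14 (Tnfrsf12a) had 13.6, 7.48 and 9.88 CPM in Cre– controls and 9.10, 8.46 and 11.3 CPM in PTEC DN RAR mice, which also overlapped (log2 fold change -0.11, adjusted p = 0.724).

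Tnfsf13b, which encodes the B cell survival factor BAFF, was the only member that rose. BAFF is made chiefly by myeloid and dendritic cells. The gene (ENSMUSG00000031497) lies on chromosome 8 from 10006467 to 10039072 on the plus strand. It had 9.99, 14.7 and 11.4 CPM in Cre– controls and 35.6, 39.3 and 20.04 CPM in PTEC DN RAR mice. All 3 PTEC DN RAR libraries were above all 3 controls, and PTEC DN RAR 3 was the lowest of its genotype. The rise was 2.64-fold (log2 fold change 1.40, SE 0.25, edgeR adjusted p = 0.0033). With single libraries left out the log2 fold change was 1.21 to 1.60 and the call was kept each time, and on pan-leukocyte scaling it was 1.57 (adjusted p = 0.00047).

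Of the receptors of BAFF, TACI was lower and BAFF-R did not pass the test. Tnfrsf13b, which encodes TACI, had 68.4, 68.6 and 72.9 CPM in Cre– controls and 52.3, 46.0 and 46.0 CPM in PTEC DN RAR mice. The genotypes did not overlap, and it fell by 0.54 on the log2 scale (SE 0.09, edgeR adjusted p = 0.0020). The BAFF receptor Tnfrsf13c had 2 to 23 counts per library and a difference that did not pass the test (log2 fold change 0.72, 95% interval -0.52 to 1.95, adjusted p = 0.318). BCMA (Tnfrsf17) had 1 to 22 counts and was not tested.

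Markers of dendritic cells, a source of BAFF, and of B cells, its target, are given beside it. Xcr1, a chemokine receptor of cross-presenting dendritic cells, had 1.25, 2.92 and 1.20 CPM in Cre– controls and 10.6, 14.1 and 4.64 CPM in PTEC DN RAR mice. Clec9a, a lectin of the same cells, had 8.81, 14.3 and 7.82 CPM in Cre– controls and 23.4, 34.8 and 18.6 CPM in PTEC DN RAR mice. Both were lowest in PTEC DN RAR 3 among the PTEC DN RAR libraries, as was Tnfsf13b, but so were the macrophage markers Adgre1 (1711, 1669 and 1224 CPM) and C1qa (2990, 3111 and 2250 CPM). Of the 8 dendritic cell markers, 3 were called higher (Xcr1, Clec9a and Dpp4) and 1, Ccr7, lower (log2 fold change -0.74). Flt3 and Cd209a were among the 4 not called (log2 fold changes -0.07 and -0.03). The summed level of all 8 was 128 to 181 CPM in Cre– controls and 157 to 203 CPM in PTEC DN RAR mice. Of 6 B cell markers 4 were tested and 1, Cd79b, was called higher, a share near the 23.6% of all genes. The part of these cells in the BAFF result was not tested.

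**Figure D2:**
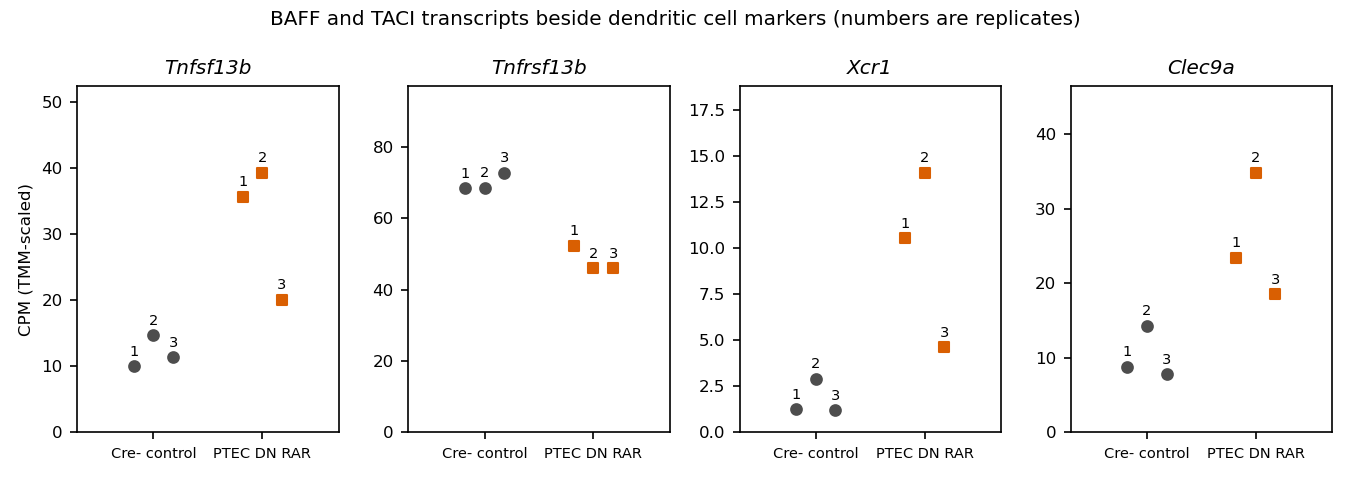
TMM-scaled CPM (y axes, from 0) of Tnfsf13b (BAFF), its receptor Tnfrsf13b (TACI) and the dendritic cell markers Xcr1 and Clec9a, with grey circles for Cre– controls, orange squares for PTEC DN RAR mice and the replicate number above each point. Tnfsf13b, Xcr1 and Clec9a are higher in all 3 PTEC DN RAR libraries and Tnfrsf13b is lower in all 3. The 2 markers shown are among the 3 of 8 called higher, and the others were not called or, for Ccr7, called lower.

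Tnfrsf1a encodes TNFR1, the death-domain receptor of TNF found on most cell types. The gene (ENSMUSG00000030341) lies on chromosome 6 from 125349362 to 125362484 on the plus strand. It had 252, 216 and 251 CPM in Cre– controls and 207, 201 and 193 CPM in PTEC DN RAR mice. The genotypes did not overlap, and Tnfrsf1a was 1.20-fold lower (log2 fold change -0.26, SE 0.09, edgeR adjusted p = 0.0494). The call was at the threshold and was lost without Cre– control 1 (log2 -0.23, adjusted p = 0.098), Cre– control 3 (-0.27, adjusted p = 0.102), PTEC DN RAR 1 (-0.28, adjusted p = 0.0844), PTEC DN RAR 2 (-0.26, adjusted p = 0.106) or PTEC DN RAR 3 (-0.28, adjusted p = 0.0702). On pan-leukocyte scaling the difference was -0.07 (adjusted p = 0.666), and the call was also lost with at least 10 counts in every library (-0.23, adjusted p = 0.0662) and a replicate block (-0.26, adjusted p = 0.0552).

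Tnfrsf1b encodes TNFR2, the TNF receptor without a death domain, which is found mainly on leukocytes and endothelium. The gene (ENSMUSG00000028599) lies on chromosome 4 from 145213463 to 145246870 on the minus strand. It had 507, 434 and 476 CPM in Cre– controls and 462, 444 and 409 CPM in PTEC DN RAR mice. The genotypes overlapped, and the difference did not pass the test (log2 fold change -0.11, 95% interval -0.33 to 0.11, edgeR adjusted p = 0.402). The sign of this difference turned on pan-leukocyte scaling, to 0.080.

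The balance of the 2 TNF receptors was also read within each library, where scaling plays no part. The log2 ratio of Tnfrsf1b to Tnfrsf1a counts was 1.01, 1.01 and 0.92 in the Cre– libraries, against 1.16, 1.14 and 1.08 in the PTEC DN RAR libraries. All 3 PTEC DN RAR ratios were above all 3 control ratios, and the means differed by 0.15. The exact two-sided permutation test gave p = 0.1, which is the smallest value that 3 against 3 allows. The log2 ratio of Tnf to Tnfsf12 was -0.25, 0.53 and -0.15 in the Cre– libraries, against -0.47, -0.67 and -0.18 in the PTEC DN RAR libraries. These groups overlapped (difference -0.48, exact permutation p = 0.2). The log2 ratio of Tnfsf9 to its receptor Tnfrsf9 was 6.23, 7.38 and 5.49 in the Cre– libraries, against 5.86, 6.27 and 6.58 in the PTEC DN RAR libraries, which also overlapped (difference -0.13, exact permutation p = 0.9). Adjusted over these 3 ratios (Benjamini-Hochberg), the exact p-values were 0.3, 0.3 and 0.9, in the order given.

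**Figure D3:**
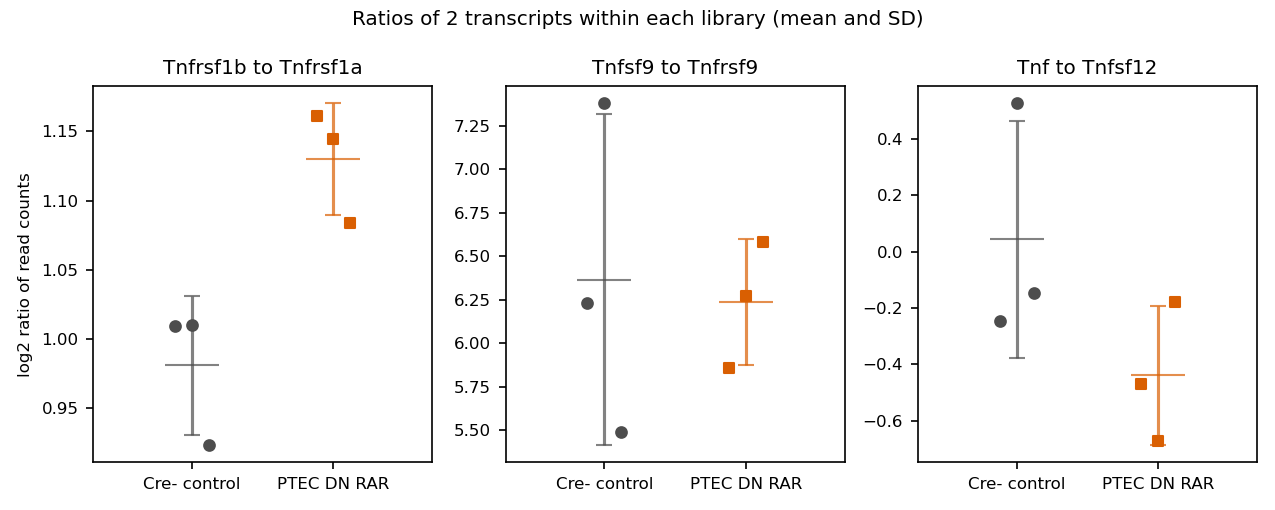
Log2 ratio of the read counts of 2 transcripts within each library (y axes, each on its own scale and not from 0), with points for libraries, wide lines for means and bars for SDs. The Tnfrsf1b to Tnfrsf1a ratio is higher in all 3 PTEC DN RAR libraries, and the other ratios overlap between genotypes.

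Tnfrsf9 encodes 4-1BB, which is induced on activated T and NK cells. The gene (ENSMUSG00000028965) lies on chromosome 4 from 150914562 to 150946102 on the plus strand. It had 0.896, 0.436 and 1.20 CPM in Cre– controls and 0.764, 0.424 and 0.487 CPM in PTEC DN RAR mice, from 13 to 38 counts per library. The genotypes overlapped, and the interval of the difference was wide (log2 fold change -0.60, 95% interval -1.57 to 0.37, edgeR adjusted p = 0.286). The interval includes both 0 and the log2 fold change of its ligand.

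Tnfrsf11a, which encodes RANK, had the lowest adjusted p of the members. RANK is carried by the monocyte and macrophage lineage and drives osteoclast formation. The gene (ENSMUSG00000026321) lies on chromosome 1 from 105780718 to 105847981 on the plus strand. It had 86.7, 112 and 97.8 CPM in Cre– controls and 60.6, 65.9 and 66.8 CPM in PTEC DN RAR mice. The genotypes were clearly apart. Tnfrsf11a was 1.53-fold lower (log2 fold change -0.62, SE 0.11, edgeR adjusted p = 0.0028). With single libraries left out it was -0.71 to -0.56 and was called each time, and on pan-leukocyte scaling it was still called (-0.42, adjusted p = 0.0281). Its ligand RANKL (Tnfsf11) had 0 counts in 5 libraries and 2 in the other, and was not tested. Osteoprotegerin (Tnfrsf11b), the decoy receptor of RANKL, had 3, 2 and 3 counts in Cre– controls and 10, 19 and 15 counts in PTEC DN RAR mice, which did not overlap, but did not pass the filter on low counts and was not tested.

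Fas encodes the receptor that starts apoptosis on binding FAS ligand. The gene (ENSMUSG00000024778) lies on chromosome 19 from 34290666 to 34327772 on the plus strand. It had 9.50, 9.69 and 9.69 CPM in Cre– controls and 7.47, 6.64 and 7.37 CPM in PTEC DN RAR mice. The controls lay within a very narrow range, and the genotypes did not overlap. Fas was 1.34-fold lower (log2 fold change -0.43, SE 0.12, edgeR adjusted p = 0.0251). The call was lost without Cre– control 3 (log2 -0.47, adjusted p = 0.0611), PTEC DN RAR 1 (-0.46, adjusted p = 0.0535) or PTEC DN RAR 2 (-0.38, adjusted p = 0.075), and on pan-leukocyte scaling (-0.23, adjusted p = 0.297). FAS ligand (Fasl) had 0 to 12 counts per library and was not tested.

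Traf1 encodes an adaptor that joins TRAF2 at TNFR2 and 4-1BB and is itself induced by NF-kB. The gene (ENSMUSG00000026875) lies on chromosome 2 from 34941750 to 34961772 on the minus strand. It had 50.8, 46.2 and 38.2 CPM in Cre– controls and 52.6, 54.7 and 41.3 CPM in PTEC DN RAR mice. The genotypes overlapped, and the difference did not pass the test (log2 fold change 0.14, 95% interval -0.18 to 0.45, edgeR adjusted p = 0.461).

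**Figure D4:**
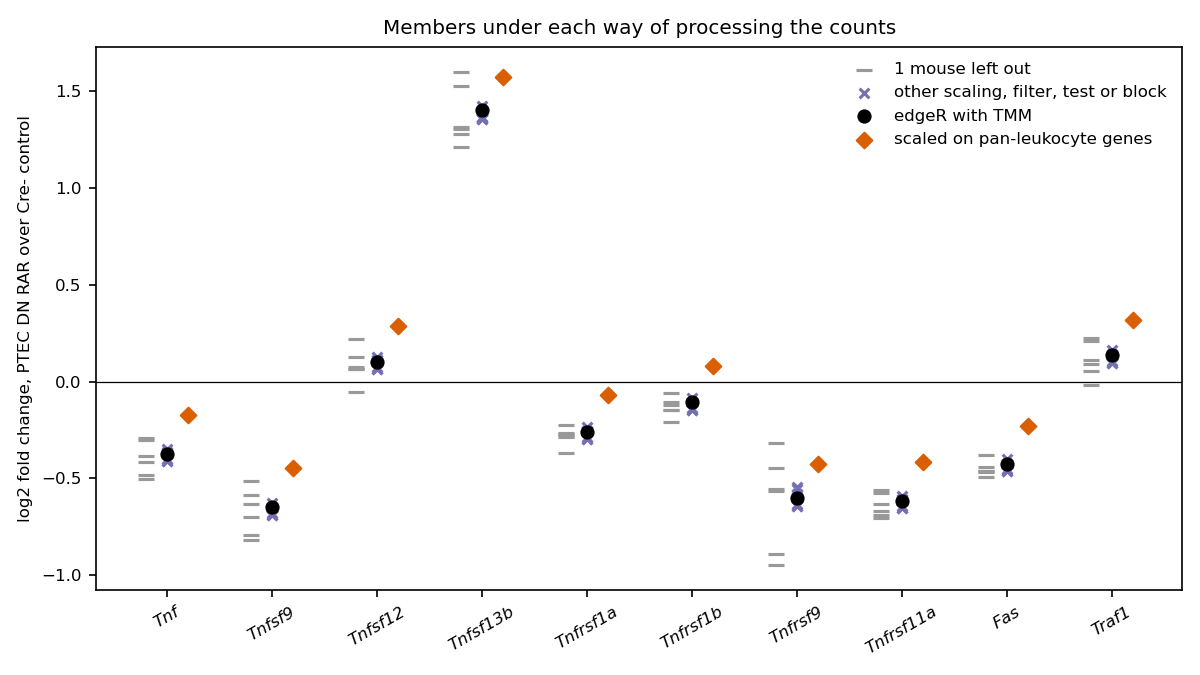
Log2 fold change, PTEC DN RAR over Cre– control (y axis), of each member from edgeR with TMM (black circles), from the other ways of scaling, filtering, testing or blocking (purple crosses), with 1 mouse left out (grey dashes) and scaled on 26 pan-leukocyte genes (orange diamonds). Pan-leukocyte scaling moves every member upward, Tnfsf13b from 1.40 to 1.57 and Tnfrsf1b across 0 to 0.080.

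The whole family, members included, was read from fixed lists. Of 18 ligands, 13 were tested, of which 4 were called lower (Tnf and Tnfsf9 among them) and 2 higher (Tnfsf13b among them), where 17.1% of all genes were called lower and 23.6% higher. Their median log2 fold change was -0.36. Tnfsf14 encodes LIGHT, a ligand of HVEM and of the lymphotoxin beta receptor. It had 22.6, 16.8 and 21.6 CPM in Cre– controls and 9.15, 8.55 and 8.73 CPM in PTEC DN RAR mice, and was 2.31-fold lower (edgeR adjusted p = 0.0005). Tnfsf8, which encodes CD30 ligand, had 9.01, 7.04 and 6.90 CPM in Cre– controls and 3.22, 4.15 and 4.07 CPM in PTEC DN RAR mice, and was 2.01-fold lower (edgeR adjusted p = 0.0033). Eda, which encodes ectodysplasin, an epithelial ligand, had 0.563, 0.235 and 0.285 CPM in Cre– controls and 1.29, 1.30 and 1.17 CPM in PTEC DN RAR mice, and was higher (log2 fold change 1.75, edgeR adjusted p = 0.0065). The genotypes were separate for all 3. The calls of Tnfsf14, Tnfsf8 and Eda held with any 1 library left out. Eda had only 22, 7 and 9 counts in Cre– controls, and 54, 55 and 55 counts in PTEC DN RAR mice. Its passing of the filter on low counts rested in part on the latter, and it was not tested with at least 10 counts in every library.

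Of 28 receptors, 24 were tested, of which 6 were called lower (the members Tnfrsf1a, Tnfrsf11a and Fas among them) and 2 higher, beside 17.1% and 23.6% of all genes, with a median log2 fold change of -0.09. Beyond the members and TACI, Tnfrsf26 had 5.89, 4.90 and 6.21 CPM in Cre– controls and 2.58, 1.62 and 2.46 CPM in PTEC DN RAR mice (log2 fold change -1.35, edgeR adjusted p = 0.0023). Tnfrsf23, a decoy receptor for TRAIL, had 5.76, 6.61 and 6.36 CPM in Cre– controls and 4.70, 3.63 and 3.26 CPM in PTEC DN RAR mice (log2 fold change -0.69, edgeR adjusted p = 0.0169). Both were lower without overlap, and both belong with Tnfrsf22 to a group of related mouse genes whose shared reads the counting could have dropped, so their levels are uncertain. On pan-leukocyte scaling the call of Tnfrsf26 was kept (adjusted p = 0.0056) and that of Tnfrsf23 was lost (log2 -0.51, adjusted p = 0.0603). Tnfrsf8, which encodes CD30, had 1.43, 1.38 and 1.36 CPM in Cre– controls and 2.34, 2.21 and 2.18 CPM in PTEC DN RAR mice (log2 fold change 0.69, edgeR adjusted p = 0.0275). CD30 was thus higher while its ligand Tnfsf8 was lower. The call of Tnfrsf8 was lost without Cre– control 2 (adjusted p = 0.0834), Cre– control 3 (adjusted p = 0.109), PTEC DN RAR 1 (adjusted p = 0.0803), PTEC DN RAR 2 (adjusted p = 0.0604) or PTEC DN RAR 3 (adjusted p = 0.063), with log2 fold changes of 0.63 to 0.70, and with no filter (adjusted p = 0.0654). Edar, the receptor of ectodysplasin, had 2, 1 and 10 counts in Cre– controls and 15, 22 and 29 counts in PTEC DN RAR mice. Its passing of the filter on low counts rested mainly on the PTEC DN RAR libraries, where it was high. With at least 10 counts required in every library it was not tested. It was called higher (log2 fold change 1.90, edgeR adjusted p = 0.0491) but not without Cre– control 1 (adjusted p = 0.144), Cre– control 2 (adjusted p = 0.143), PTEC DN RAR 1 (adjusted p = 0.0679), PTEC DN RAR 2 (adjusted p = 0.0973) or PTEC DN RAR 3 (adjusted p = 0.125), nor with DESeq2 size factors (adjusted p = 0.0532), library size alone (adjusted p = 0.0509) or the DESeq2 test (adjusted p = 0.0623). The log2 fold change was 1.45 to 2.08 in these fits and 3.39 without Cre– control 3, the control with 10 counts.

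**Figure D5:**
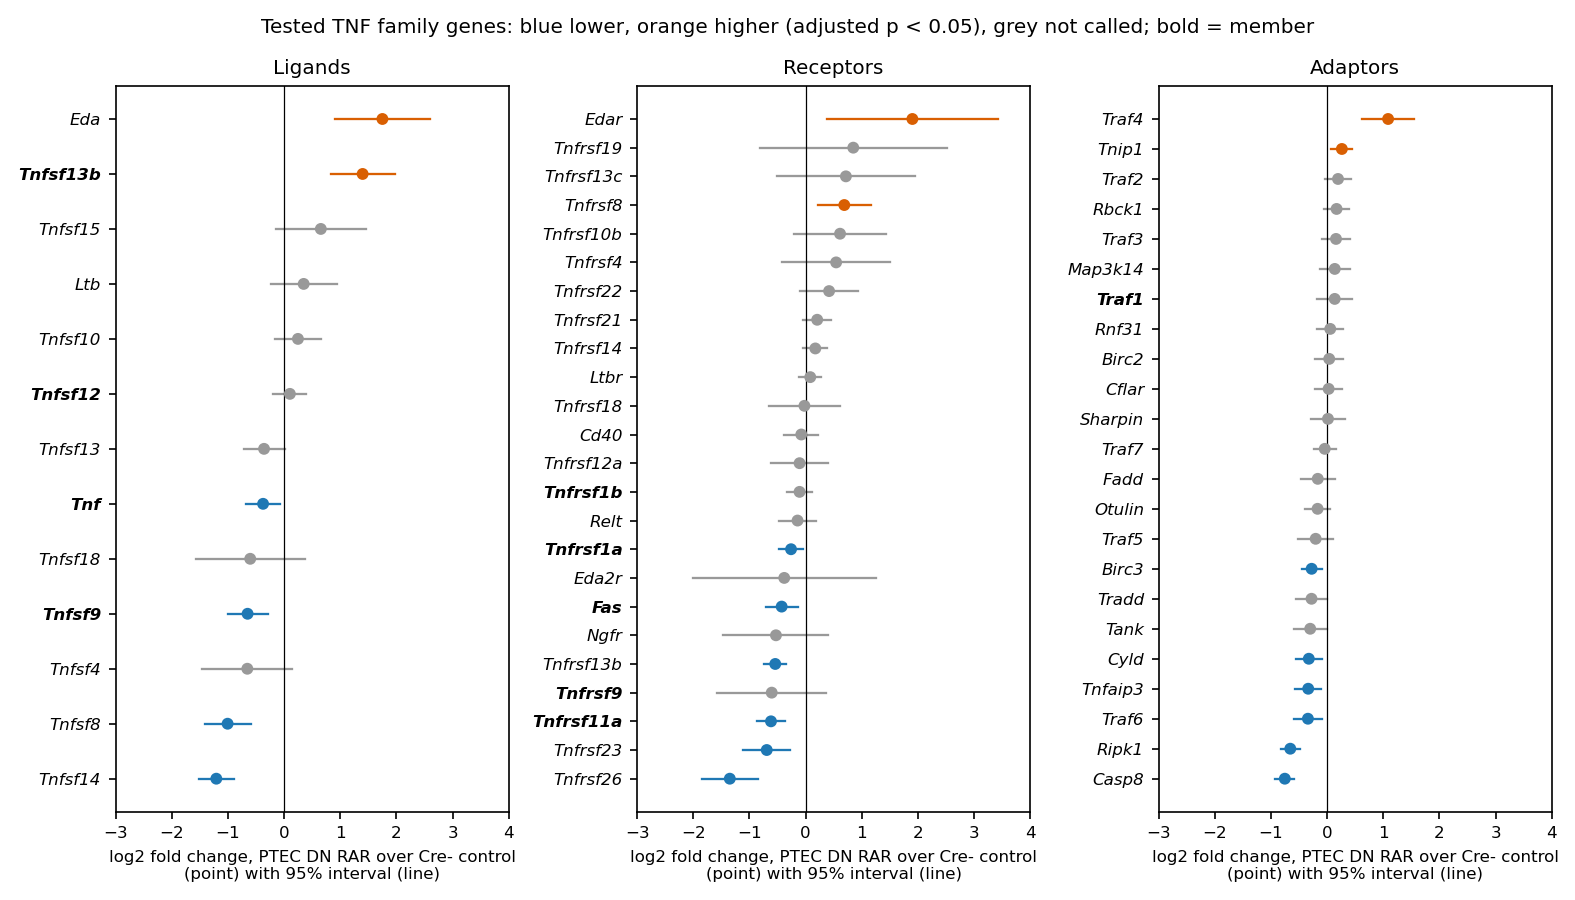
Log2 fold change, PTEC DN RAR over Cre– control (points, x axis), with 95% intervals (lines) of the 13 tested ligands, 24 receptors and 23 adaptors, with members in bold. Blue marks genes called lower, orange genes called higher and grey genes not called, and both directions occur in every group.

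All 23 adaptors and signaling genes were tested, of which 6 were called lower and 2 higher, beside 17.1% and 23.6% of all genes, with a median log2 fold change of -0.04. The kinase RIPK1 and caspase-8, which act below the death receptors, were the clearest. Casp8 had 97.1, 94.7 and 91.1 CPM in Cre– controls and 55.6, 54.9 and 57.4 CPM in PTEC DN RAR mice, and was 1.69-fold lower (edgeR adjusted p = 0.0003). Ripk1 had 84.0, 88.8 and 89.7 CPM in Cre– controls and 55.9, 56.2 and 54.6 CPM in PTEC DN RAR mice, and was 1.57-fold lower (edgeR adjusted p = 0.0005). For both genes the replicates of a genotype lay close together, the genotypes were far apart, and the calls held on pan-leukocyte scaling (log2 -0.56, adjusted p = 0.0037 for Casp8, and -0.46, adjusted p = 0.0064 for Ripk1). Traf6, a ubiquitin ligase that acts below RANK, was lower (log2 fold change -0.34, edgeR adjusted p = 0.0392), although not without Cre– control 2 (adjusted p = 0.0658), Cre– control 3 (adjusted p = 0.0974), PTEC DN RAR 1 (adjusted p = 0.0974) or PTEC DN RAR 2 (adjusted p = 0.117), nor with library size alone (adjusted p = 0.0609), with log2 fold changes of -0.37 to -0.26 in these fits. On pan-leukocyte scaling it was -0.14 (adjusted p = 0.506). The other 3 called lower were Birc3 (log2 fold change -0.28, edgeR adjusted p = 0.0227), the deubiquitinase Cyld (-0.33, adjusted p = 0.0324) and Tnfaip3, which encodes A20 (-0.34, adjusted p = 0.0299). On pan-leukocyte scaling Casp8 and Ripk1 were the only 2 adaptors called lower, so these 3 lost their calls. They fall outside the naming rule and were named after their values were seen.

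Traf4, a TRAF family member of epithelia, had 11.0, 6.54 and 7.44 CPM in Cre– controls and 16.3, 16.0 and 20.8 CPM in PTEC DN RAR mice, and was 2.12-fold higher (edgeR adjusted p = 0.0041). Tnip1, which encodes a partner of A20, had 62.1, 61.1 and 66.1 CPM in Cre– controls and 76.2, 71.5 and 79.5 CPM in PTEC DN RAR mice (log2 fold change 0.26, edgeR adjusted p = 0.0306). The call of Tnip1 was lost without Cre– control 1 (adjusted p = 0.0565), Cre– control 2 (adjusted p = 0.145), Cre– control 3 (adjusted p = 0.103), PTEC DN RAR 1 (adjusted p = 0.0806) or PTEC DN RAR 3 (adjusted p = 0.154), and with DESeq2 size factors (adjusted p = 0.0549), the DESeq2 test (adjusted p = 0.055) or no filter (adjusted p = 0.0974), in which fits the log2 fold change was 0.18 to 0.26. The number of adaptors called lower depended on single libraries too, since it was 2 without PTEC DN RAR 2 and 3 without PTEC DN RAR 1. That of the members was 3 without Cre– control 1 or Cre– control 3, and 2 without PTEC DN RAR 1 or PTEC DN RAR 2. Over all genes the lower calls moved from 2636 to 2824 without Cre– control 1, 1874 without Cre– control 3, 1977 without PTEC DN RAR 1 and 1885 without PTEC DN RAR 2.

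Release and message decay set how much TNF reaches other cells, and 8 genes of that step were read: 3 were called lower and 2 higher, beside 17.1% and 23.6% of all genes. Adam17, the protease that sheds TNF, had 198, 231 and 238 CPM in Cre– controls and 201, 226 and 195 CPM in PTEC DN RAR mice, and the genotypes overlapped (log2 fold change -0.10, 95% interval -0.33 to 0.13, edgeR adjusted p = 0.449). Its inhibitor Timp3 had 175, 135 and 163 CPM in Cre– controls and 400, 489 and 502 CPM in PTEC DN RAR mice, and was 2.94-fold higher (edgeR adjusted p = 0.0002). The markers of proximal tubule, endothelium and other kidney cells described above were higher in the same 3 libraries, and their part in the Timp3, Traf4, Eda and Edar results was not tested.

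The pseudoproteases that carry ADAM17 to the cell surface went in opposite directions. Rhbdf2, which encodes iRhom2, the form of leukocytes, had 67.9, 55.2 and 61.3 CPM in Cre– controls and 38.4, 39.3 and 45.0 CPM in PTEC DN RAR mice, and was lower (log2 fold change -0.59, edgeR adjusted p = 0.0034). On pan-leukocyte scaling its call was lost (log2 -0.39, adjusted p = 0.0661). Rhbdf1, which encodes iRhom1, the form of other tissues, had 12.0, 8.89 and 8.71 CPM in Cre– controls and 20.8, 23.2 and 21.4 CPM in PTEC DN RAR mice, and was 2.20-fold higher (edgeR adjusted p = 0.0008). Neither gene overlapped between the genotypes. The part of the other kidney cells in the Rhbdf1 result, and so in this contrast, was not tested. Frmd8, which stabilizes the iRhoms, was not called (log2 fold change -0.03, adjusted p = 0.844), nor was the proprotein convertase Furin, which activates ADAM17 and BAFF (log2 fold change -0.0009, adjusted p = 0.995).

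Zfp36 encodes tristetraprolin, which promotes decay of the Tnf message. It had 2912, 2444 and 2373 CPM in Cre– controls and 1530, 1135 and 1776 CPM in PTEC DN RAR mice. The genotypes did not overlap, and Zfp36 was 1.74-fold lower (edgeR adjusted p = 0.0071), also on pan-leukocyte scaling (log2 -0.59, adjusted p = 0.0337). Adam10, which sheds FAS ligand, had 250, 309 and 318 CPM in Cre– controls and 222, 253 and 204 CPM in PTEC DN RAR mice. It was called lower although the genotypes overlapped (log2 fold change -0.37, edgeR adjusted p = 0.0393), and the call was lost without Cre– control 2 (adjusted p = 0.0757), Cre– control 3 (adjusted p = 0.0985), PTEC DN RAR 1 (adjusted p = 0.102) or PTEC DN RAR 3 (adjusted p = 0.0787). In these fits the log2 fold change stayed between -0.37 and -0.34. The call was also lost with library size alone (-0.37, adjusted p = 0.0512) and on pan-leukocyte scaling (-0.18, adjusted p = 0.277).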

How the data were processed

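PolyA RNA from CD11B+ cells of 6 mice (3 per genotype, 1 library each) was sequenced. The authors deposited raw read counts per Ensembl gene. The submitters' processing notes name STAR 2.5.0a, HTSeq 0.6.1, edgeR, limma and GRCm38, with no roles or strand setting. Summary lines, 46.4% to 50.6% of a library (mostly reads without a unique alignment), were left out. Of 46612 gene lines, 9 repeated identifiers were collapsed, and 27 symbols turned into dates were restored. Positions are GENCODE M21 (GRCm38). Counts were filtered (filterByExpr), TMM-scaled and tested with edgeR 4.0.16 (quasi-likelihood, Benjamini-Hochberg over 15440 genes). DESeq2 1.42.0 and limma 3.58.1 were alternatives. Ratios, with 0.5 added to each count, had exact permutation tests. Libraries of a genotype differed beyond sampling noise. Members and lists were chosen with earlier results of these data known. Named were the members, their binding partners, the TNF release list and, from each family list, up to 3 non-overlapping called genes per direction with the lowest or highest fold change.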

Additional observations from a re-analysis of the deposited data

How the results depend on the processing

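Scaling on pan-leukocyte genes changed most. Under it the calls over all genes were 770 lower and 4599 higher, against 2636 and 3640 with TMM, 1 member was called lower, 2 ligands, 3 receptors and 2 adaptors were called lower, and 5 adaptors were called higher. With at least 10 counts in every library, 3 members were called lower, 1 ligand higher and 1 receptor higher. Of the 13813 genes tested with that filter, 2386 were called lower and 3411 higher. Eda and Edar did not pass that filter and so were not tested under it. With DESeq2 size factors 1 receptor and 1 adaptor were called higher, with the DESeq2 test 1 and 1, with library size alone 1 receptor, and with no filter 1 adaptor. Over all genes the higher calls in these fits were 3405, 3548, 3682 and 3571, in that order. With a replicate block 3 members were called lower, beside 2606 of all genes. Under the block Tnf (log2 -0.37, adjusted p = 0.0862) and Tnfrsf1a (-0.26, adjusted p = 0.0552) lost their calls with differences of the same size. Deviations of same-numbered libraries from their genotype means correlated at -0.0165, 0.189 and 0.039. The value of replicate 2 was the highest of any pair, but not every library correlated best with its own number. With 3 libraries per genotype these correlations cannot decide whether the numbers paired the mice, and the labels do not say. The cause of these changes was not tested. With 1 library left out, which gives that genotype 2 mice, the lower calls were 2 to 4 members, 3 to 4 ligands, 4 to 6 receptors and 2 to 6 adaptors, and the higher calls were 1 member, 2 ligands, 0 to 3 receptors and 1 to 2 adaptors, where over all genes 1874 to 2824 were called lower and 2433 to 3699 higher. The Tnfsf9 to Tnfrsf9 log2 ratio difference was then -0.57 to 0.38, that of Tnf to Tnfsf12 -0.63 to -0.24 and that of Tnfrsf1b to Tnfrsf1a 0.12 to 0.17. Turned in sign, without a call on either side, were on pan-leukocyte scaling Tnfrsf1b (log2 0.080), Tnfrsf12a (0.092), Adam17 (0.090), Frmd8 (0.16) and Furin (0.19). Furin also turned with library size alone (0.0053), limma-voom (0.0074), at least 10 counts (0.024) and the block (0.0069). With 1 library left out Tnfsf12 ranged from -0.053 to 0.22, Traf1 from -0.016 to 0.23, Tnfrsf12a from -0.33 to 0.14, Frmd8 from -0.15 to 0.038 and Furin from -0.14 to 0.095. Of 459 alternative values for single genes, 385 kept direction and side of the threshold and 58 kept the direction but lost the call.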
